A study of Rattus norvegicus with 4 samples.

Results

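Splicing factors and hnRNP proteins, the trans-acting machinery that removes introns and chooses exons, were measured in NR8383, an established line of alveolar macrophages obtained by lavage from the lung of a healthy rat. Members were chosen by name: every gene probe whose RefSeq accession leads to a rat symbol beginning with Srsf, Hnrnp, Snrp, Sf3, U2af, Prpf or Rbfox, plus Tra2a, Tra2b, the Ptbp, Esrp, Celf and Mbnl genes listed in the rule, Nova1 and Nova2. This gave 132 probes of 78 genes, out of 21109 named probes of 16581 genes. A further 17 symbols that meet the rule and are not pseudogenes had no named probe, among them Nova2, Hnrnpll, U2af2, Snrpd3, Srsf11 and Hnrnpa0. The series holds 1 group of 4 samples, all labelled as water (H2O) controls at 4 h and carrying the tag ALI, whose meaning is not given. The labels put the cells at 20 passages and 48 h after seeding, and the series' design speaks of biological replicates. Nothing says which culture each sample came from, so every p-value below measures only the spread between these 4 samples. With 1 group, no comparison between conditions was made.

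Splicing is carried out by the spliceosome, which is built on each intron from small nuclear ribonucleoproteins (snRNPs) carrying the ring of Sm proteins, from the SF3A and SF3B complexes that hold the U2 snRNP at the branch site, and from PRP proteins that assemble the tri-snRNP and drive the catalytic steps. SR proteins and the Tra2 proteins bind exonic enhancers and usually favour inclusion of an exon, whereas hnRNP proteins coat the nascent transcript and often favour skipping. These factors are used by nearly every cell. Another layer is restricted to certain tissues: Rbfox1, Rbfox3, Nova1 and Ptbp2 act mainly in neurons, Esrp1 and Esrp2 mainly in epithelia, Snrpn is the brain-rich counterpart of the Sm protein gene Snrpb, and Srsf12 is found mainly in testis and brain. Those 8 genes with a named probe are called restricted here. Rbfox2, Celf2, Ptbp3, Prpf40b and Mbnl2, which are broad but biased to some tissues, are called intermediate (5 genes), and the other 65 members ubiquitous.

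The stretches upstream of 5 of these genes are shown here, among them those of paralogs whose array values are given below. They are the 250 bases before the annotated start in RefSeq (build GRCr8), given for Ptbp1 and its neuronal counterpart Ptbp2, for Snrpb and its neuronal counterpart Snrpn, and for Hnrnpa2b1, the detected member that varied most between the arrays. Capitals mark each match to CCGGAAG, the core of ETS family sites, or to CCAAT, the CCAAT box, on either strand; matches to one motif could overlap the other. The stretches lie at chr7:10502958-10503207 (- strand) for Ptbp1, chr2:210558278-210558527 (- strand) for Ptbp2, chr3:137832480-137832729 (- strand) for Snrpb, chr1:120338920-120339169 (- strand) for Snrpn and chr4:81875887-81876136 (- strand) for Hnrnpa2b1.
Ptbp1: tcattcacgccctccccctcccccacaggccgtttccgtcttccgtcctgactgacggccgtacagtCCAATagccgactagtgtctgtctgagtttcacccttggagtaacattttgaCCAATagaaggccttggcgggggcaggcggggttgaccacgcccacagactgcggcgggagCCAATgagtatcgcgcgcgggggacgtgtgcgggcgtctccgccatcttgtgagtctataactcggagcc
Ptbp2: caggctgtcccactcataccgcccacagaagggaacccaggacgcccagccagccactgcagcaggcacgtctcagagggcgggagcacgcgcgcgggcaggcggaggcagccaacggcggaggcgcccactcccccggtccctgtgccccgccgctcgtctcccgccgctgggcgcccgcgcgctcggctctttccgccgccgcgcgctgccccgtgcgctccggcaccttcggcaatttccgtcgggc
Snrpb: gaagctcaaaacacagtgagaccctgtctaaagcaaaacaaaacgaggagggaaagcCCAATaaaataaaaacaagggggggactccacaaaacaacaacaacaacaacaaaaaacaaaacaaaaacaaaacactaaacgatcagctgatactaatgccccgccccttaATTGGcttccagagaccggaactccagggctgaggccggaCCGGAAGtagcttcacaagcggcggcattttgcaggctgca
Snrpn: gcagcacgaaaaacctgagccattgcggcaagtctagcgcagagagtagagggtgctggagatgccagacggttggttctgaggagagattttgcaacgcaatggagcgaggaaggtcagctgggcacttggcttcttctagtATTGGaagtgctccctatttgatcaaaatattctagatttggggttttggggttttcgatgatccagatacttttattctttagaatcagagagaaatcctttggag
Hnrnpa2b1: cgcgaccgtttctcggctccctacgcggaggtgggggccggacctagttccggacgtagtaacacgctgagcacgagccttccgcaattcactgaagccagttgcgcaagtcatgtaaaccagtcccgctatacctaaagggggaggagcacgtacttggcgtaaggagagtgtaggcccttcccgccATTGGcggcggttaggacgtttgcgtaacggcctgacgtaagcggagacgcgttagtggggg
The Ptbp1 stretch holds 3 CCAAT matches and the Ptbp2 stretch neither motif, although the Ptbp2 stretch has more CpG dinucleotides (34 against 21). The Snrpb stretch holds both motifs and the Snrpn stretch a CCAAT match alone, at similar CpG counts (8 and 7). A missing match says only that these letters are not in this window. Any link between these stretches and the array values was not tested.

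RefSeq promoters were matched for 69 of the 78 members, 79 promoters in all because some genes have several. Among the 69 promoters of the 64 members found on all arrays, 18 (26.1%) held the ETS core, against 17.6% of the promoters of all detected named genes and 7.27% of all 33469 promoters in the table. CCAAT was found in 34 of these 69 (49.3%), against 36.7% of the promoters of detected named genes and 34.0% of all promoters. The median CpG count was 20 for detected members, 16 for detected named genes and 5 for named genes not detected on all arrays. The 10 promoters of the 5 members not found on all arrays held no ETS core, and 3 of them held CCAAT. Of these 10, 6 are windows of Hnrnpcl1 that overlap in part, and they include 2 of the 3 with CCAAT, so the count rests largely on 1 gene. The TATA box (TATAAA, either strand) was found in 10.1% of the promoters of detected members and 6.87% of those of detected named genes, and the core of NRF1 sites in 2.90% and 1.81%. These shares are descriptions without a test, and the motifs were chosen with the array results known.

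Signals came from 4 arrays of 1 colour. Each is given here on a log2 scale on which 0 stands for the 75th percentile of the gene spots of its own array. That percentile lay at 878, 932, 1237 and 831 intensity units on replicates 1, 2, 3 and 4, and between 49.2% and 50.3% of gene spots were well above background, a flag that the scanner software sets per spot. Pearson's r between arrays lay between 0.990 and 0.994 over 17324 detected probes, which are not independent replicates. Of the alveolar macrophage markers listed, 10 of 10 were detected on all arrays, with gene means from -3.96 (Adgre1) to 7.09 (Lyz2). The mean log2 signal over that list was 1.73 to 1.95 per array. All marker lists were chosen with earlier results of these data known, so they are not independent support for the label of the cells. Of 13 neuron markers only Eno2 (mean 1.19) was detected on all arrays, and of 12 epithelial markers only Ocln (-3.60). Of 10 muscle markers only Actc1 (-1.51) and Tnnt2 (-1.40) were, and of 8 germ cell markers none. The muscle marker Des and the germ cell markers Prm1 and Prm2 were well above background on 3 arrays. The neuron marker Syt1, the muscle marker Myog and the germ cell marker Acr were so on 1. The mean log2 signal per array lay between -6.98 and -6.36 for the neuron list, between -7.17 and -6.81 for the epithelial list, between -6.28 and -5.45 for the muscle list and between -6.91 and -6.08 for the germ cell list. The neuron markers Map2, Tubb3, Snap25 and Stmn2 and the epithelial markers Epcam and Cdh1 were well above background on no array.

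Nearly all ubiquitous splicing factors were detected and nearly all restricted ones were not. A gene is called detected here when 4 of 4 arrays had some probe of it, the same one on each, well above background, not detected when none was on any array, and partly detected otherwise. Of the 78 members, 69 (88.5%) were detected, 2 partly and 7 not, whereas 51.0% of all named genes were detected and 42.6% were not. With the milder flag for positive and significant signals 3 members were not detected, as Rbfox1, Snrpn and Srsf12 became partly detected and Rbfox2 detected. Of the 65 ubiquitous members 64 (98.5%) were detected, of the 5 intermediate members 4, and of the 8 restricted members 1. The median log2 signal over the ubiquitous members was 1.20, 1.16, 1.32 and 1.06 on replicates 1 to 4, and that over the restricted members was -7.15, -7.53, -7.63 and -7.67. All 4 medians of the first class lay above all 4 of the second. Gene means ranged from -6.26 to 5.25 in the ubiquitous class and from -7.91 to -4.45 in the restricted class. Probes differ in affinity, so these ranges describe the classes and do not rank genes. The classes were chosen with earlier results of these data known.

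**Figure D1:**
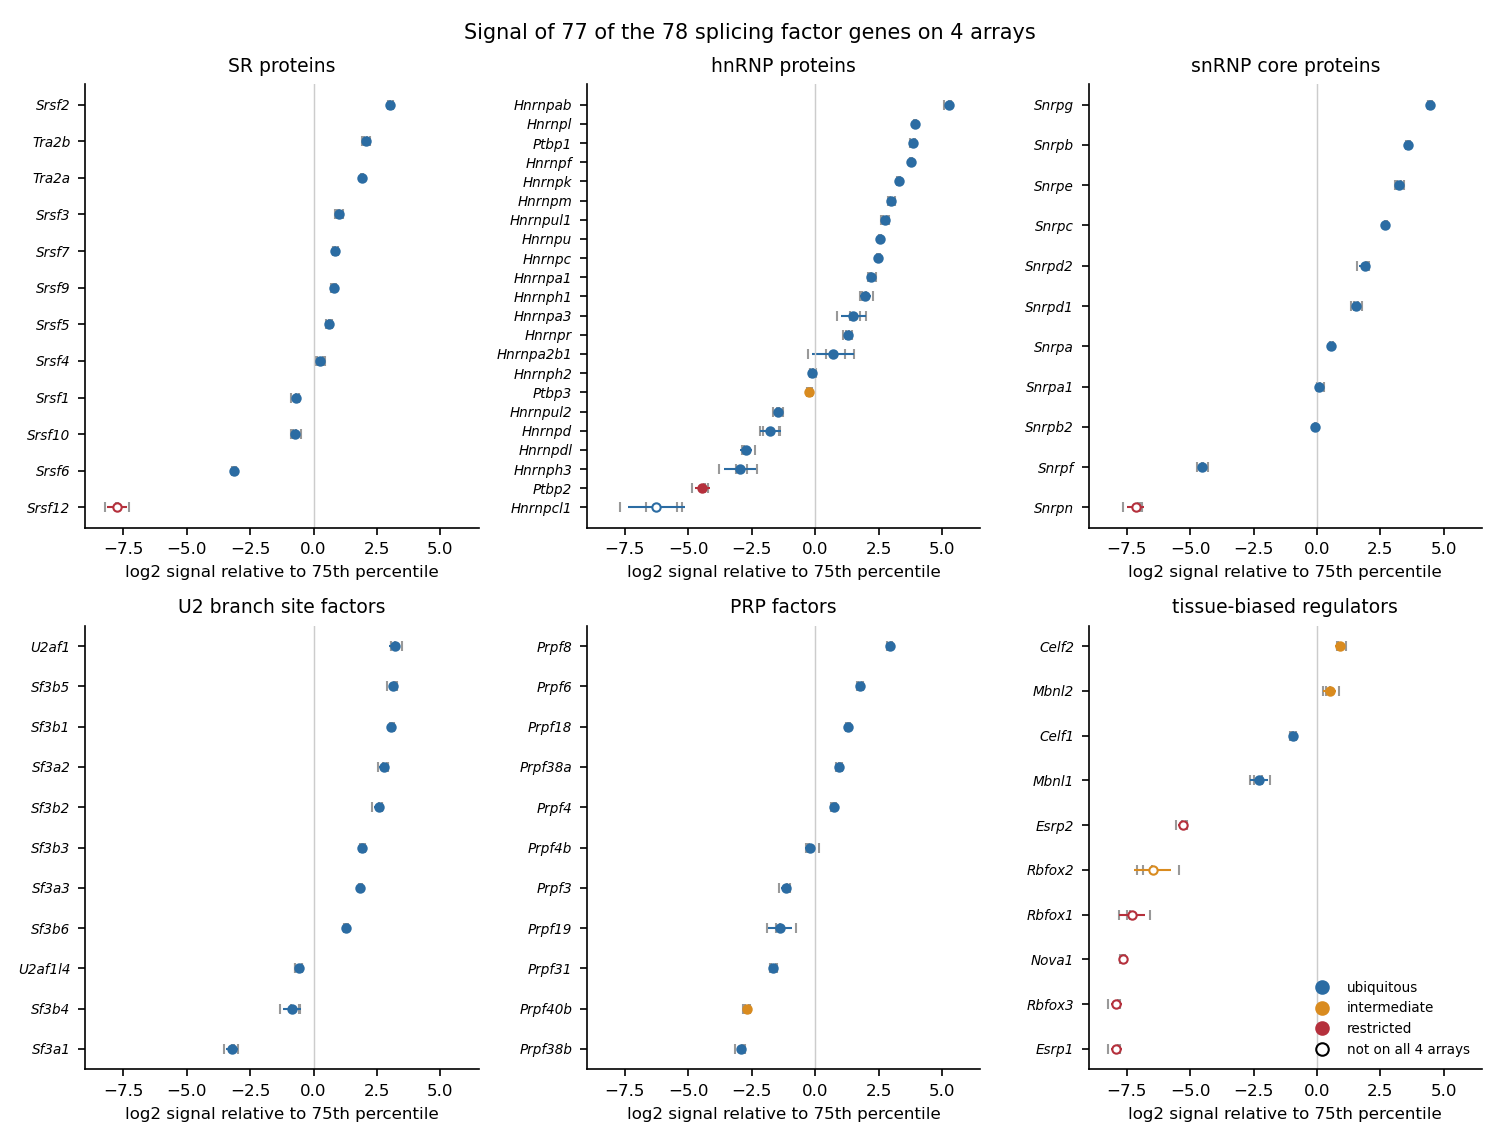
Log2 signal of 77 of the 78 member genes, with 0 at each array's 75th percentile, by role; circles are means, bars SD (n = 4 arrays) and grey ticks single arrays, each for the brightest probe of the gene. Filled circles are genes well above background on all 4 arrays, and the open circles are Hnrnpcl1, Rbfox2 and 7 restricted genes. The restricted genes lie between -7.91 and -4.45, with Ptbp2 the one filled circle among them.

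Apart from Ptbp2, described further on, the neuronal regulators were well above background on no array. Rbfox3, the protein stained as the neuronal marker NeuN, gave processed signals of 3.83, 4.27, 4.14 and 3.75 intensity units on replicates 1 to 4. The negative control spots had medians of 4.33, 4.75, 4.58 and 4.10 on the same arrays, and their 99th percentile lay between 7.83 and 13.7. The dimmest spot that counted as well above background measured 18.1 to 21.5. Rbfox1, a brain and muscle regulator, was well above background by none of its 3 probes; its brightest gave 9.16, 5.68, 6.85 and 3.76 units, and the one printed 10 times per array gave 4.50, 4.79, 4.80 and 4.53. Nova1, a neuronal KH-domain regulator, gave 4.07, 4.50, 6.27 and 4.41 units by its brighter probe. All values of Rbfox3, of Nova1 and of the 10-spot Rbfox1 probe lay below the lowest 99th percentile of the controls, while the brightest Rbfox1 probe exceeded that value, though not its own array's 99th percentile of 13.7, on replicate 1.

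Snrpn, the neuron-rich Sm protein gene, was read by a probe printed 10 times per array, which gave 6.66, 7.48, 6.17 and 6.92 units and was well above background on no array. Snrpb, its ubiquitous counterpart, had a log2 signal of 3.56, 3.62, 3.50 and 3.65 by its own probe. The SR protein gene Srsf12 gave 5.76, 4.42, 4.19 and 3.77 units, at the level of the negative controls. It was the one SR protein gene of the 12 that was not detected.

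Among the epithelial regulators, Esrp1 gave 3.86, 4.27, 4.12 and 3.67 units and was well above background on no array. Esrp2, its paralog, gave 22.1, 19.7, 35.0 and 23.7 units and was well above background on replicates 3 and 4. Its signal exceeded the 99th percentile of the negative controls on all 4 arrays, so the pair differed in call: Esrp2 counted as partly detected.

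The polypyrimidine tract binding proteins, which repress exons, are known for a switch in neurons from Ptbp1 to Ptbp2. Ptbp1 had a log2 signal of 3.89, 3.92, 3.73 and 3.89 (mean 3.86 ± 0.09 SD, n = 4). Ptbp2 was the 1 restricted member detected, by 1 of its 2 probes, at -4.86, -4.38, -4.22 and -4.33, which is 30.2, 44.8, 66.4 and 41.3 intensity units. The other Ptbp2 probe, designed from a different transcript record, gave 4.07, 4.47, 7.78 and 3.69 units and was at the level of the controls. Ptbp3, the paralog known from blood cells, was detected by both of its probes, the brighter at -0.25 ± 0.08 (SD, n = 4). The 3 paralogs were thus all called detected, Ptbp2 close to the limit of the call and by a single probe.

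**Figure D2:**
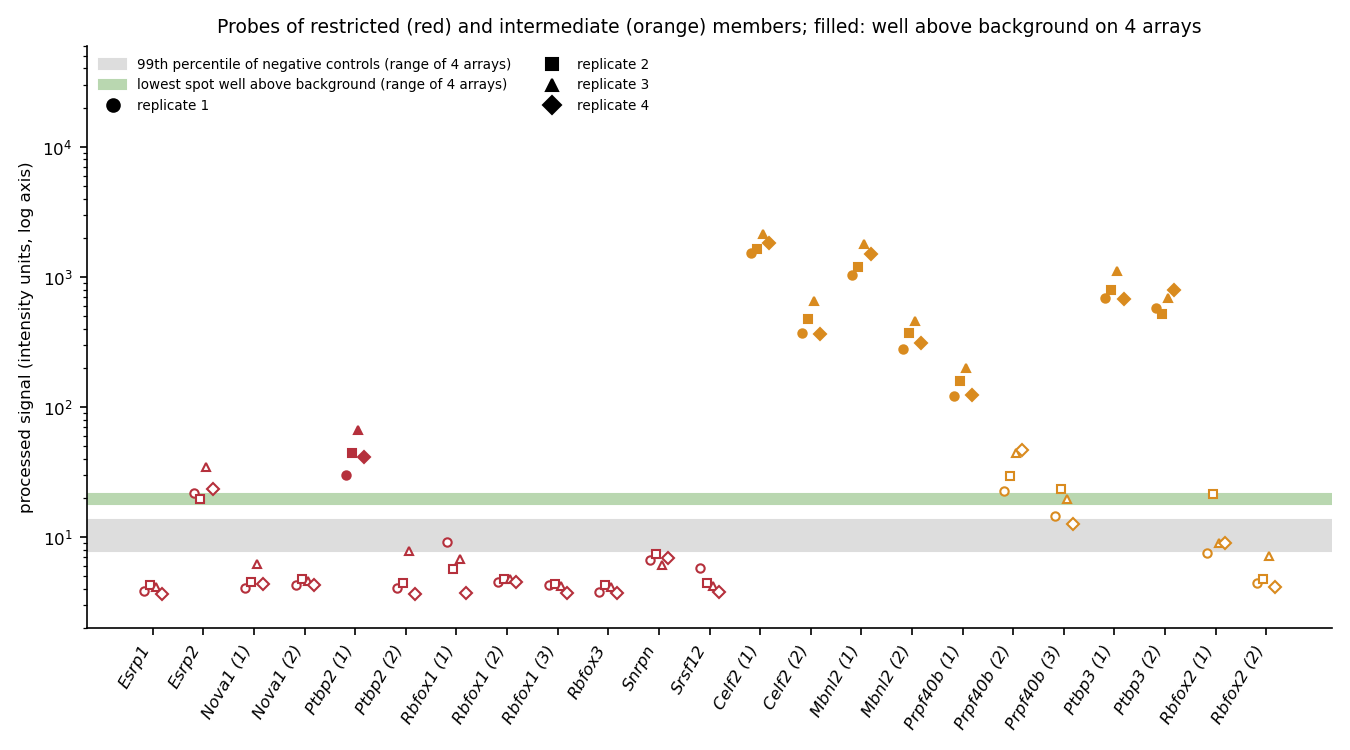
Processed signal (intensity units, log axis) of every probe of the restricted (red) and intermediate (orange) members; symbols are the 4 replicates, and numbers in brackets tell apart probes of 1 gene. Filled symbols mark probes well above background on all 4 arrays, the grey band the 99th percentile of negative controls (7.83 to 13.7) and the green band the dimmest spot called well above background (18.1 to 21.5). In the restricted class 1 of 2 Ptbp2 probes is filled, and Esrp2 lies around the green band.

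Of the intermediate members, Celf2, a CUG-binding regulator of muscle, brain and blood cells, had a log2 signal of 0.81, 0.82, 0.78 and 1.14. Mbnl2, a muscleblind protein, had 0.24, 0.36, 0.52 and 0.85, and both Celf2 and Mbnl2 were detected by 2 of 2 probes. Prpf40b, a PRP factor with higher levels in brain, had -2.84, -2.56, -2.63 and -2.75 by 1 of 3 probes; the others were well above background on 3 arrays and on 1 array. Rbfox2, the widely expressed Rbfox gene, was the exception in this class. Its brighter probe gave 7.62, 21.5, 9.02 and 9.07 units, and neither probe passed the background flag on any array. The related ubiquitous regulators Celf1 (-0.96 ± 0.09 SD, n = 4) and Mbnl1 (-2.28 ± 0.34) were detected.

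All 11 ubiquitous SR and Tra2 genes were detected, leaving Srsf12 out of the 12 genes of that role. Srsf2, which binds exonic enhancers and is needed for genome stability, had the values 2.94, 3.02, 2.99 and 3.14. Srsf1, the founding SR protein known as ASF/SF2, had -0.70, -0.89, -0.58 and -0.57. Srsf3 (0.99 ± 0.13 SD, n = 4), which also takes part in mRNA export, Srsf7 (0.84 ± 0.08), its close relative, Srsf5 (0.61 ± 0.10), Srsf10 (-0.72 ± 0.17), a splicing repressor when dephosphorylated, and Srsf6 (-3.12 ± 0.08) had these values by their brightest probes. Another Srsf5 probe had -1.19, -0.62, -0.52 and -1.48, a wider spread than the brightest one. Tra2a had 1.92 ± 0.06 and Tra2b 2.06 ± 0.14. RefSeq lists 10 pseudogenes of Srsf3 and 7 of Srsf7, so signal from near-identical copies cannot be told apart from that of these genes.

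The hnRNP genes, with the Ptbp genes, numbered 22, of which 21 were detected. Hnrnpk, a poly(C)-binding protein, had 3.29 ± 0.05 (SD, n = 4), Hnrnpl, which binds CA repeats, 3.94 ± 0.04, Hnrnpu, a nuclear scaffold protein, 2.55 ± 0.04, Hnrnpc, which binds uridine tracts, 2.49 ± 0.05, and Hnrnpm 2.97 ± 0.11. Hnrnph1, which binds G runs, had 1.97 ± 0.22, and Hnrnpd, the AU-rich element binder AUF1, had -1.77 ± 0.41. Hnrnpa1, the most studied exon silencer, had 2.21 ± 0.13 by the brightest of 5 probes, and RefSeq names 51 pseudogenes of it. The exception was Hnrnpcl1, a gene of the Hnrnpc-like family that falls in the ubiquitous class only because no list names it. Its single probe gave 4.30, 24.6, 12.1 and 18.9 units and was well above background on replicate 2 alone.

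Of the 11 Snrp genes, which encode Sm ring proteins and proteins of the U1 and U2 snRNPs, 10 were detected, all but Snrpn. Snrpb had 3.58 ± 0.07 (SD, n = 4) and Snrpd1, another Sm ring protein, 1.55 ± 0.18. Snrpe, also of the ring, had 3.24 ± 0.17, and the U1 proteins Snrpa and Snrpc had 0.54 ± 0.05 and 2.69 ± 0.04. Snrpb2, the U2 protein B″, had the smallest spread of any detected member (-0.04, -0.09, -0.09 and -0.06; SD 0.026), and Snrpc was also among the 3 smallest (SD 0.039). Snrpf, detected by its single probe, had -4.29, -4.53, -4.72 and -4.50. Its mean of -4.51 was close to the -4.45 of the detected Ptbp2 probe, so this ubiquitous member also lay near the limit of the call. It was singled out after its values were seen. RefSeq lists 10 pseudogenes of Snrpc and 8 of Snrpg.

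All 11 SF3 and U2AF genes were detected. Sf3b1, the branch site protein mutated in myelodysplasia, had 3.00, 3.03, 3.08 and 3.16 by a probe printed 10 times, while its other probe was well above background on replicates 1 and 3 only. U2af1, which reads the AG at the end of the intron, had 3.19 ± 0.20 (SD, n = 4), Sf3a3 1.83 ± 0.07, Sf3b4 -0.84 ± 0.35 and Sf3a1 -3.22 ± 0.23. All 12 PRP genes were detected as well. Prpf8, the scaffold at the catalytic centre, had 2.99, 3.03, 2.81 and 2.98. The tri-snRNP proteins Prpf3 (-1.17 ± 0.18), Prpf4 (0.72 ± 0.08), Prpf6 (1.75 ± 0.12) and Prpf31 (-1.65 ± 0.13), and the ubiquitin ligase Prpf19 (-1.40 ± 0.47) were also detected.

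Other splicing genes, from a list of 140 that the rule does not cover, showed the same division between broad and restricted. This list and its roles were also chosen with earlier results of these data known, so the division is not independent support. Of the 120 with a named probe, 101 (84.2%) were detected, 2 partly and 17 not. All 8 LSm ring genes, 9 branch site genes, and 19 helicase and catalytic step genes were detected. So were the 5 exon junction genes, the 12 snRNP assembly genes and the 3 genes listed under the minor spliceosome. Of 9 further snRNP proteins 8 were detected, all but Snrnp25. Snrnp25, Snrnp35 and Snrnp48 also belong to the minor spliceosome, so not every gene of it was detected. Also detected were 13 of 14 SR protein kinases and coactivators (all but Srpk3, a muscle kinase) and 23 of 24 broad regulators (all but Rbm38). Of 17 tissue-restricted regulators outside the members 1 was detected, Rbpms (1.90 ± 0.13 SD, n = 4), with Celf5 well above background on 3 arrays and Msi1 on 1. The neuronal Elavl2, Elavl3 and Elavl4 and the heart regulator Rbm20 were well above background on no array.

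**Figure D3:**
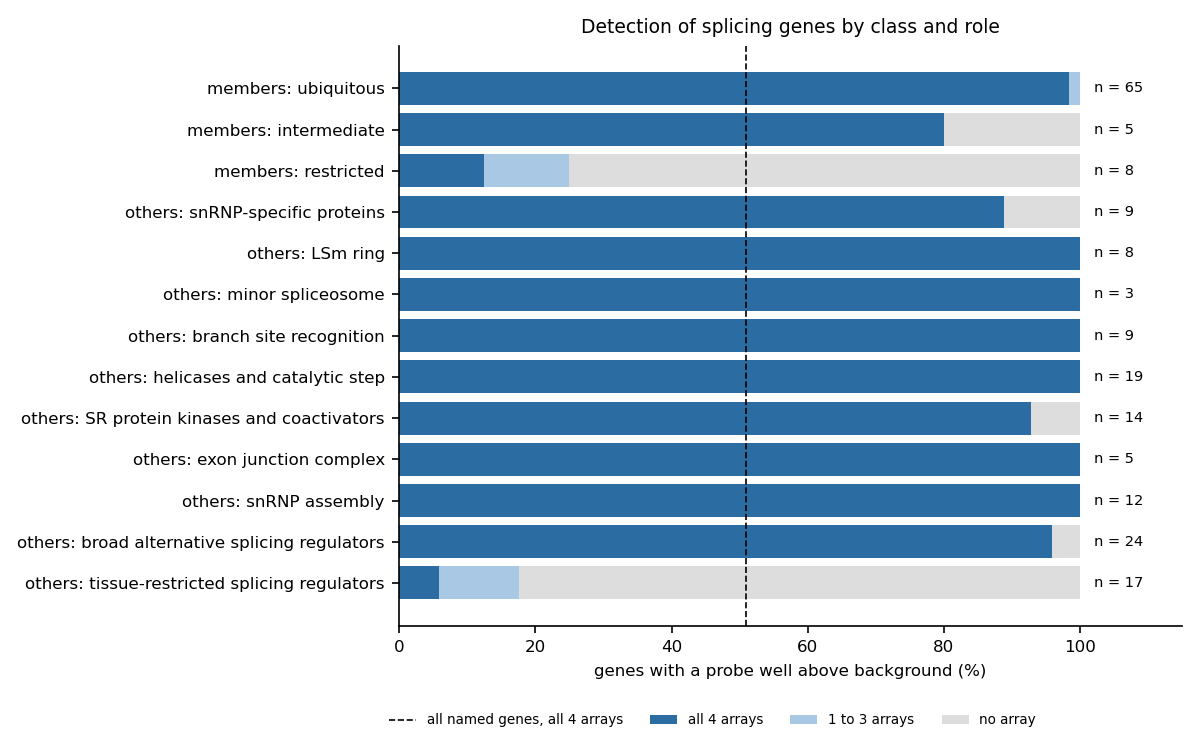
Share of genes (%) with a probe well above background on all 4 arrays (dark blue), on 1 to 3 arrays (light blue) or on none (grey), for the 3 classes of members and 10 roles of other splicing genes; n is the number of genes with a named probe, and the dashed line is the 51.0% of all named genes. Each class of broad factors lies above the line, and restricted members (12.5%) and restricted other regulators (5.88%) lie below it.

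Levels of the detected members differed little between the 4 arrays. The median SD over the 69 detected members was 0.131 on the log2 scale, against 0.144 over all 8456 detected named genes. The median deviation of the members from their own means was -0.04, -0.02, 0.01 and 0.03 on replicates 1 to 4, against -0.02, 0.02, -0.03 and 0.04 for all detected named genes. The scaling sets such medians near 0: with no scaling they were -0.16, -0.06, 0.38 and -0.18 for the members and -0.14, -0.02, 0.34 and -0.17 for all detected named genes. The 4 detected tissue-biased regulators (Celf1, Celf2, Mbnl1 and Mbnl2) had a scaled median of 0.30 on replicate 4, by the brightest probe of each. The other Celf2 probe had -1.25, -0.98, -0.92 and -1.19, and the other Mbnl2 probe -1.65, -1.33, -1.42 and -1.41. Neither was highest on replicate 4. In 4 members (5.80%) the highest and lowest array were over 2-fold apart, against 3.26% of detected named genes. These were Hnrnpa2b1, Hnrnph3, Hnrnpa3 and Prpf19.

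Hnrnpa2b1, an hnRNP of mRNA transport and exon silencing, varied most among the detected members. Its single probe, printed once per array, had a log2 signal of 0.42, 1.16, 1.54 and -0.30, a span of 3.59-fold. It was the 1 member of 69 whose variance exceeded that of genes of similar signal (adjusted p = 0.0201, limma variance test with Benjamini-Hochberg adjustment over all 8456 genes), a call made for 0.237% of detected named genes. An unadjusted p under 0.05 was found for 7 of 69 members and for 532 of 8456 detected named genes (6.29%). The member count was 5 without an intensity trend and 8 with normexp, another background correction. These shares were not compared by a test. The call for Hnrnpa2b1 was lost without replicate 3 (adjusted p = 0.567, limma) and without replicate 4 (0.127), and also with the percentile taken over detected probes (0.0638), with quantile normalization (0.0843), without robust fitting (0.0851), without an intensity trend (0.910) and with each probe as its own feature (0.0541). In simulated data the test found 2% of genes given 3 times the SD usual at their signal, and 54% of those given 6 times. A member without a call may thus still vary. For Hnrnpa2b1, replicate 3 stayed the highest and replicate 4 the lowest under all 5 scalings tried. The 17 gene spots around its spot that were well above background deviated by a median of -0.09 on replicate 3 and -0.01 on replicate 4, against 0.84 and -1.01 for the Hnrnpa2b1 spot.

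Hnrnpa3, a close relative of Hnrnpa2b1, had 1.38, 1.75, 2.00 and 0.85 by a probe printed 10 times and 0.34, 0.78, 1.08 and -0.16 by another printed 10 times. A single-spot probe of the same transcript record had -1.69, -1.30, -0.94 and -1.81. All of these ordered the arrays as Hnrnpa2b1 did, with replicate 3 highest and replicate 4 lowest. Of the remaining Hnrnpa3 probes, 1 from another transcript record had -0.91, -1.17, -0.91 and -0.83 and did not share that order. Another, from a further record, stayed between -2.90 and -2.74. The last, from the same record as the probes that shared the order, was not well above background on any array. Hnrnpa3 did not pass the variance test (adjusted p = 0.156, limma). It did without replicate 1 (0.0252), without replicate 2 (0.0235), with normexp (0.0421) and with no filter on dim probes (0.0146). It did not without replicate 3 (0.892), without replicate 4 (0.629) or with no scaling (0.0502). With the mean over its detected probes the adjusted p was 0.845. Hnrnph3, a G-run binding relative of Hnrnph1, had -3.12, -2.68, -2.28 and -3.78 by its brighter probe (adjusted p = 0.388, limma) and -4.06, -3.72, -3.93 and -3.73 by the other.

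Of the 112 member probes well above background on all arrays, 10 (8.93%) were over 2-fold apart, against 3.87% of such named probes. By Dixon's criterion 1 array stood apart from the other 3 for 4 of the 112 member probes (3.57%), against 5.90% of such named probes. Among the 10 probes over 2-fold apart, replicate 3 was the highest array for 8 and replicate 4 the lowest for 6; over all 412 named probes of that kind the shares were 21.1% and 26.2%. The full order of replicates 3, 2, 1 and 4, which is also the order of the arrays' 75th percentiles, was seen in 5 of the 10, all of hnRNP genes, and in 41 of the 412. This pattern was looked for after the values were seen, 2 of the 5 probes read the same gene, and the part of array brightness in it was not tested. With normexp the log2 spans of the Sf3a2 (0.45), Hnrnph3 (0.75), Hnrnpr (0.75), Prpf19 (0.90) and Hnrnpa1 (0.98) probes fell under 2-fold. The rest of the 10 stayed over it. The Hnrnph3 and Hnrnpr probes are among the 5 with the full order. The share over all named probes with normexp was not computed.

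**Figure D4:**
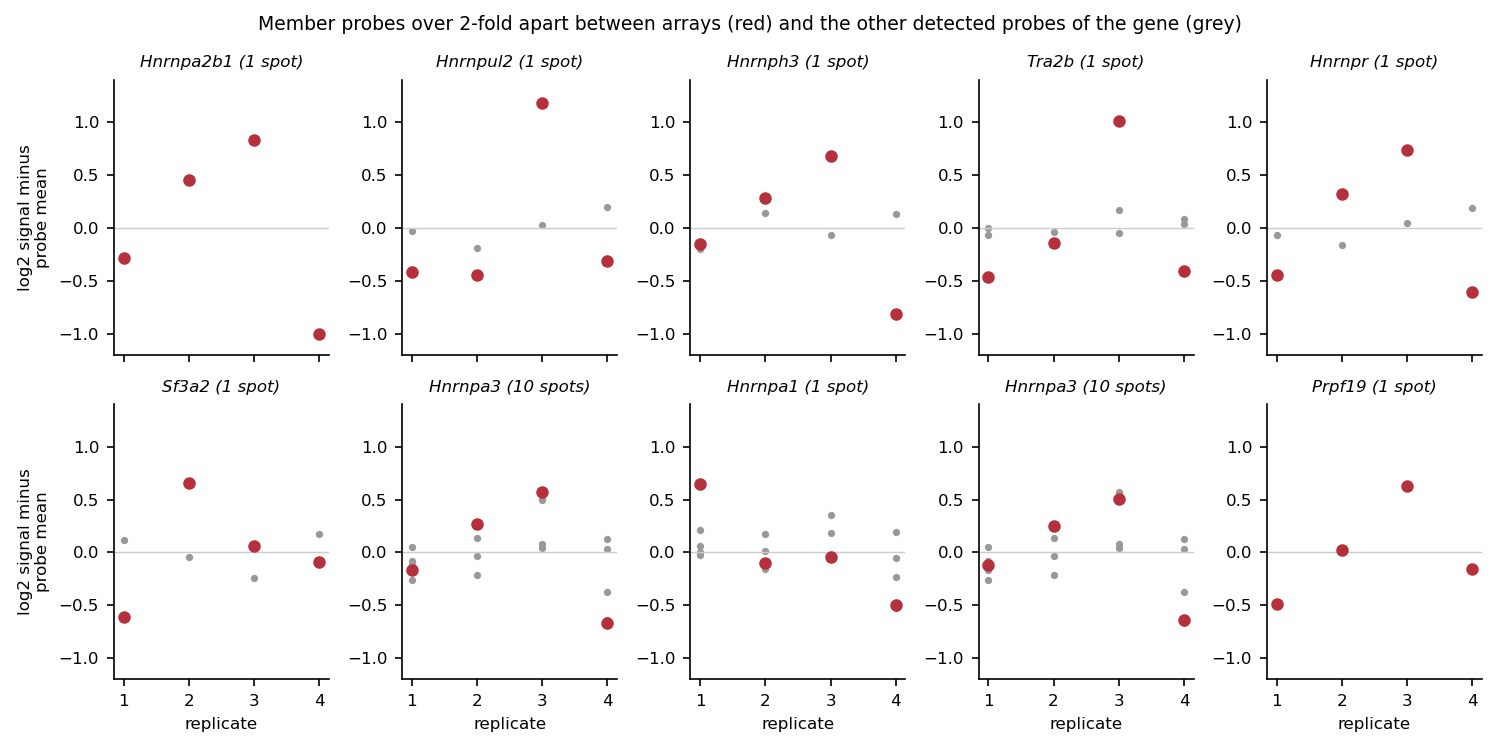
Log2 signal minus the mean of the probe on each replicate for the 10 member probes over 2-fold apart between arrays (red) and for the other detected probes of the same gene (grey); Hnrnpa2b1 and Prpf19 have no other probe. Replicate 3 is the highest red point in 8 panels and replicate 4 the lowest in 6, while the grey points spread less in most panels, with wider ones for Hnrnpa3 and Hnrnpa1.

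Probes of 1 gene could differ in how they followed the arrays. The difference between the brightest and another detected probe of a gene does not depend on a scaling that subtracts 1 value per array, although normexp and quantile normalization can change it. It spanned over 2-fold in 10 of 43 member pairs (23.3%), against 7.82% of 2187 pairs over all named genes; pairs of 1 gene share a probe, and 31 member genes contributed. For Tra2b, an SR-like activator, the probe printed 10 times had 2.00, 1.92, 2.24 and 2.10 and another 1.72, 1.69, 1.67 and 1.81, while the other probe, printed once, had -2.44, -2.12, -0.96 and -2.39. That probe stood high on replicate 3 by more than the others moved. For Hnrnpul2 one probe had -2.31, -2.33, -0.71 and -2.20 and the other -1.50, -1.66, -1.45 and -1.28. For Hnrnpr, a relative of Syncrip, the brighter probe had 1.27 ± 0.15 (SD, n = 4) and the dimmer -3.86, -3.09, -2.68 and -4.03. In these 3 genes the probe that moved more was the dimmer one, whereas in Hnrnph3, given above, it was the brighter one. In Hnrnpa3 the brightest probe had a log2 span of 1.15, and a dimmer one, also printed 10 times, had 1.24. Hnrnpul2 and Hnrnpr were singled out after their values were seen, as were the probes shown of Tra2b. The files used here hold no probe sequences, so which exons or ends the probes read is not known here.

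Probes also differed in detection in 6 of the 39 members with more than 1 probe (15.4%), against 19.7% of such named genes. These were Hnrnpa3, Prpf18, Prpf31, Prpf40b, Ptbp2 and Sf3b1. For Prpf31, mutated in retinitis pigmentosa, one probe had -1.52, -1.78, -1.76 and -1.55, and the other gave 10.6, 5.35, 5.20 and 5.09 units and was well above background on no array. For Prpf18, a second-step factor, one probe had 1.28 ± 0.07 (SD, n = 4) and the other was well above background on replicates 1, 3 and 4 only. The remaining 39 members had 1 probe each, so their call rests on that probe.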

How the data were processed

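RNA of 4 samples was measured on 1-colour Agilent rat arrays, 1 array per sample, from 100 ng of RNA labelled with Cy3 per the labels. The deposited files are, per the file headers, the output of Agilent Feature Extraction 11.0.1.1: spot intensities on a linear scale (processed, median and local background signal) and other values, flags of 0 or 1 per spot. The deposited intensities carried no normalization between arrays, and the small number of arrays limits the precision. Control spots and outlier spots were left out, no gene spot was saturated, and spots of a probe were averaged as log2. The array's 75th percentile was subtracted. A flag counted for a probe when over 50% of its spots carried it. Names came from the RefSeq gene table (GRCr8) by accession without version; of 45598 probes 21109 matched. The header names build rn4, so no array coordinates are given. The value of a gene was that of its brightest probe.

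Variance between arrays was tested with limma 3.58.1 in R 4.3.3 (intercept only, residual variance against the eBayes prior with trend and robust fitting, upper-tail F test, common prior degrees of freedom, threshold 0.05) on all detected genes, after a check on simulated data; other steps used Python 3.11.15, numpy 2.4.6 and pandas 2.3.3. In that check 50 genes each were given 3, 6, 12 and 24 times the prior SD. The test recovered 2%, 54%, 90% and 98% of them, with 3 false calls. The series has 1 group, so detection was counted and not tested. Named members were the restricted and intermediate ones, those not detected on all arrays, those variable or with differing probes, the 3 with the largest and the 3 with the smallest SD, and a set given by name. The values of 1 member are not reported here. Members, classes and lists were chosen with earlier results of these data known. Alternatives were other flags, numbers of arrays, scalings, probe rules, fits and leaving out each replicate.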

Additional observations from a re-analysis of the deposited data

Results flagged for a closer look

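On 4 of the 112 member probes detected on all arrays, 1 array stood far from the other 3 by Dixon's criterion; chance gives about 1 in 20. This is 3.57% of the member probes, against 5.90% of all such named probes, so the number of these probes does not exceed the background. The dimmer Hnrnpul2 probe was at -0.71 on replicate 3, with the others between -2.33 and -2.20, and the 23 detected gene spots around it deviated by a median of -0.07 there. Hnrnpdl, an AU-rich element binder with 1 probe, stood at -2.39 on replicate 3, where the lowest and highest of the rest were -2.87 and -2.79. For the brighter Celf2 probe replicate 4 was high at 1.14, the rest lying from 0.78 to 0.82. For the dimmer Hnrnpab probe, printed 10 times, replicate 1 was low at 4.40, the rest lying from 4.56 to 4.58.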

How the results depend on the processing

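Of 123 main counts and medians under alternatives, 99 stayed within the limits used (within 1.5 times for counts) and 24 moved. Of the further values (adjusted p of Hnrnpa2b1 and Hnrnpa3, counts of genes not detected and of all named genes detected), 32 kept their side, 7 lost the call, 4 gained it and 1 moved, members not detected going from 7 to 3 with the milder flag. Under the flag, array and probe rules tried, 64 ubiquitous members stayed detected and other splicing genes ranged from 101 to 105. Restricted members detected went from 1 to 2 when the flag for positive, significant signals or the negative controls set detection, Esrp2 being added, and to 5 with the intermediate class counted in. Hypervariable members went from 1 to 0 with the percentile over detected probes, quantile normalization, no trend, no robust fitting and, chosen after seeing the data, each probe as its own feature. They went to 2 with normexp and no filter, Hnrnpa3 being added, and leaving out 1 replicate gave 0 to 2. Over all genes tested these settings gave, instead of 20, in turn 10, 10, 4, 9 and 13. Normexp gave 58, no filter 79, and leaving out 1 replicate 3 to 63. Members over 2-fold apart went from 4 of 69 to 7 of 69 with no scaling and 7 of 78 with no filter, to 2 with normexp and with the mean over probes, and to 10 of 112 per probe (2 to 4 when leaving out 1 replicate). Over all named genes tested the count went from 276 to 833 of 8456 with no scaling and to 3913 of 16580 with no filter. Normexp gave 77, the mean over probes 263, single probes 412 of 10643, and leaving out 1 replicate 130 to 229. The median SD rose from 0.131 to 0.276 with no scaling, where the members' median shift was 0.38 on replicate 3 and -0.18 on replicate 4. For all detected named genes it rose from 0.144 to 0.267, with shifts of 0.34 and -0.17. No paired analysis was possible because there is 1 group. Probes near background carry the weakest calls, such as Ptbp2, Esrp2, Rbfox2 and, among the ubiquitous members, Snrpf and Hnrnpcl1. The causes of these changes were not tested.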
